A study of Oryza sativa Japonica Group with 4 samples.

Results

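Chlorophyll is made in the plastid by a chain of enzymes coded in the nucleus. Described here are the genes of 10 of these enzymes in drought-treated rice leaves, chosen by gene identifier from a table of 33744 genes. Of the 10 identifiers, 10 were found, each with a gene name or description that fits its enzyme. The first steps of the chain build a porphyrin ring from glutamate, and the ring then receives either magnesium, which leads to chlorophyll, or iron, which leads to heme. The step from protochlorophyllide to chlorophyllide needs light in flowering plants, and free intermediates are phototoxic, so the chain is known to be tightly controlled and to be lowered in leaves short of water.

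RNA-seq was run on leaves of seedlings (Oryza sativa, Japonica group) aged 14 days after 6 h of drought, with 2 libraries from OE13-2KR/oswox13-1, labelled drought sensitive, and 2 from OE13, labelled drought resistant. Both lines were built around OsWOX13, a WUSCHEL-related homeobox transcription factor. Its name sets OE13-2KR/oswox13-1 apart by a 2KR form of the factor as well as by the oswox13-1 background, so effects of these cannot be told apart, and wild-type or watered leaves were not included. The labels do not state whether the libraries of a line were made from separate plants, so the p-values measure only how far these libraries spread, which may be technical.

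The values are FPKM, sequenced fragments relative to the length of the gene and the size of the library, which summed to between 931335 and 941593 per library; the read depth is unknown. The OE13-2KR/oswox13-1 replicate 2 library stood apart, with 4819 genes listed at 0 against 3973 to 4138 in the other libraries. The leaf label was checked on genes of carbon fixation, 4 for the Rubisco small subunit and 1 for phosphoribulokinase, all 5 of which overlap genes on the other strand, over 32.2% to 97.5% of their span. Summed, they came to 12259.5 and 6866 FPKM in OE13-2KR/oswox13-1 leaves, against 20496 and 10736 FPKM in OE13 leaves. The root silicon channel gene LSI1 was also present, at 18.7 to 27.1 FPKM, and the meristem gene OSH3 was at 0.910 FPKM in 1 library and at 0 in the other 3. The locus taken from general knowledge to be OsWOX13 (Os01g0818400, named OsWOX8 in the table) had 27.1 and 49.9 FPKM in OE13-2KR/oswox13-1 leaves, against 22.0 and 75.6 FPKM in OE13 leaves, so the lines overlapped.

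The comparison asked whether transcripts of chlorophyll synthesis differed between the lines under drought. With 2 libraries a line, none of the 10 genes passed the test across all genes (limma on log2(FPKM + 1), Benjamini-Hochberg adjusted p under 0.05), a threshold that 0.00496% of the 20174 genes tested passed. The smallest adjusted p among them was 0.215. The log2 fold change, OE13-2KR/oswox13-1 over OE13, was negative for 8 genes and positive for 2, while 56.8% of all genes tested had a negative one. Its median was -0.63, against -0.08 for all genes tested. At an unadjusted p under 0.05, 1 of the 10 genes was lower in OE13-2KR/oswox13-1, against 12.0% of all genes tested, and 0 were higher, against 1613 of the 20174 genes tested. For 4 of the 10, both OE13-2KR/oswox13-1 libraries lay below both OE13 libraries, which held for 32.8% of all genes tested. They were ELL, OsChlD, OsDVR and YGL1. In ELL and OsDVR this rested on near-equal values of OE13-2KR/oswox13-1 replicate 1 and OE13 replicate 2. Those of OsDVR were 24.11 and 24.12 FPKM.

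For most of the 10 genes the gap between the replicates of OE13-2KR/oswox13-1 was larger than the difference between the lines. Replicate 2 of that line was the lowest of the 4 libraries for 9 of the 10 genes, against 39.2% of all genes tested, while its replicate 1 was the highest for 3 (OsPorA, FGL and CAO). Without OE13-2KR/oswox13-1 replicate 2 the median log2 fold change of the 10 genes was 0.10, against -0.05 for all genes tested. Without replicate 1 of that line the medians were -1.33 and -0.11. Without OE13 replicate 1 they were -0.37 and -0.08. Together the 10 genes took 0.293% and 0.0689% of all FPKM in OE13-2KR/oswox13-1 leaves, against 0.212% and 0.148% in OE13 leaves. Without OsPorA the shares were 0.155% and 0.0593%, against 0.167% and 0.127%, so OE13-2KR/oswox13-1 replicate 1 was then not the highest. In leaf RNA, fewer cells of a type and less RNA per cell cannot be told apart. The carbon fixation genes were also lowest in OE13-2KR/oswox13-1 replicate 2 for 4 of 5 genes, and their part in the result was not tested.

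**Figure D1:**
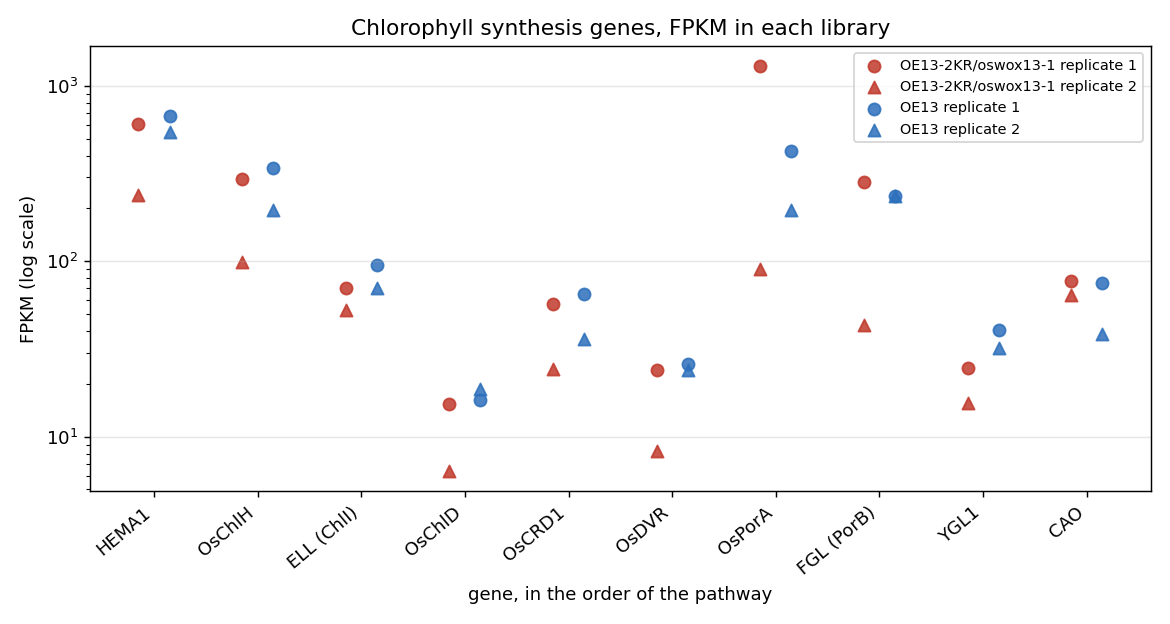
FPKM on a log axis for the 10 chlorophyll synthesis genes, 1 point per library, with OE13-2KR/oswox13-1 in red and OE13 in blue. The genes are only roughly in the order of the pathway, as YGL1 is drawn before CAO, whose enzyme acts on chlorophyllide. The red triangle, OE13-2KR/oswox13-1 replicate 2, is the lowest point for every gene except CAO.

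HEMA1 codes for glutamyl-tRNA reductase, the enzyme at which the supply of the precursor 5-aminolevulinic acid is controlled (Os10g0502400; build IRGSP 1.0, chromosome 10, 19159179 to 19162398, minus strand). It had 607 and 239 FPKM in OE13-2KR/oswox13-1 leaves, against 675 and 546 FPKM in OE13 leaves. OE13-2KR/oswox13-1 replicate 1 lay between the OE13 libraries, and replicate 2 lay far below all others. This gave a log2 fold change of -0.67 (SE 0.46, limma adjusted p = 0.440), or -0.0014 with OE13-2KR/oswox13-1 replicate 2 left out. Antisense to HEMA1, Os10g0502450 spans 89.7% of it but was listed at no more than 0.0932 FPKM in any library. HEMA1 had the highest level of the 10 genes in 3 of the 4 libraries.

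Magnesium chelatase, which commits the ring to chlorophyll, is built of the subunits H, I and D. The H subunit carries the porphyrin, and its gene OsChlH (Os03g0323200, chromosome 3, 11712280 to 11719587, plus strand) had 294 and 99.2 FPKM in OE13-2KR/oswox13-1 leaves, against 339 and 194 FPKM in OE13 leaves. The lines overlapped (log2 fold change -0.59, SE 0.56, limma adjusted p = 0.574). A second gene with the same description, chlH (Os07g0656500), stood at 0.600 to 2.49 FPKM, and how reads shared between them were counted is not stated.

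The I and D subunits form the ATP-driven motor of the chelatase. The gene of the I subunit, named ELL in the table (Os03g0563300, chromosome 3, 20248326 to 20250000, minus strand), had 70.6 and 52.6 FPKM in OE13-2KR/oswox13-1 leaves, against 94.6 and 70.7 FPKM in OE13 leaves. Its lines were set apart only by the near-equal values of OE13-2KR/oswox13-1 replicate 1 and OE13 replicate 2. OsChlD, for the D subunit (Os03g0811100, chromosome 3, 33955293 to 33961962, plus strand), had 15.5 and 6.39 FPKM in OE13-2KR/oswox13-1 leaves, against 16.3 and 18.6 FPKM in OE13 leaves. It was the lowest of the 10 genes in every library. The log2 fold changes were -0.42 for ELL (SE 0.24, limma adjusted p = 0.376) and -0.74 for OsChlD (SE 0.40, limma adjusted p = 0.353). Without OE13-2KR/oswox13-1 replicate 2 they were -0.21 and -0.16, and without replicate 1 they were -0.63 and -1.32. Without OE13 replicate 1 that of ELL was -0.21.

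The subunit genes were far from equal in level, and their proportions moved between libraries. Per length, OsChlH was 19.0 and 15.5 times the level of OsChlD in OE13-2KR/oswox13-1 leaves, against 20.8 and 10.5 times in OE13 leaves. ELL was 4.57 and 8.23 times the level of OsChlD in OE13-2KR/oswox13-1 leaves, against 5.81 and 3.80 times in OE13 leaves. Both ratios overlapped between the lines.

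OsCRD1 codes for a subunit of the cyclase that closes the fifth ring of chlorophyll (Os01g0279100, chromosome 1, 9874379 to 9876678, plus strand). It had 56.8 and 24.2 FPKM in OE13-2KR/oswox13-1 leaves, against 64.8 and 35.8 FPKM in OE13 leaves, and in each line replicate 1 was well above replicate 2. The log2 fold change of -0.37 (SE 0.48, limma adjusted p = 0.682) turned to 0.23 without OE13-2KR/oswox13-1 replicate 2 and to 0.05 without OE13 replicate 1. OsDVR, for the reductase that turns divinyl into monovinyl pigments (Os03g0351200, chromosome 3, 13155851 to 13157256, minus strand), had 24.1 and 8.26 FPKM in OE13-2KR/oswox13-1 leaves, against 26.1 and 24.1 FPKM in OE13 leaves. Of its 4 libraries 3 were nearly equal and only OE13-2KR/oswox13-1 replicate 2 was low (log2 fold change -0.77, SE 0.48, limma adjusted p = 0.398). Without that library the log2 fold change of OsDVR was -0.05.

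**Figure D2:**
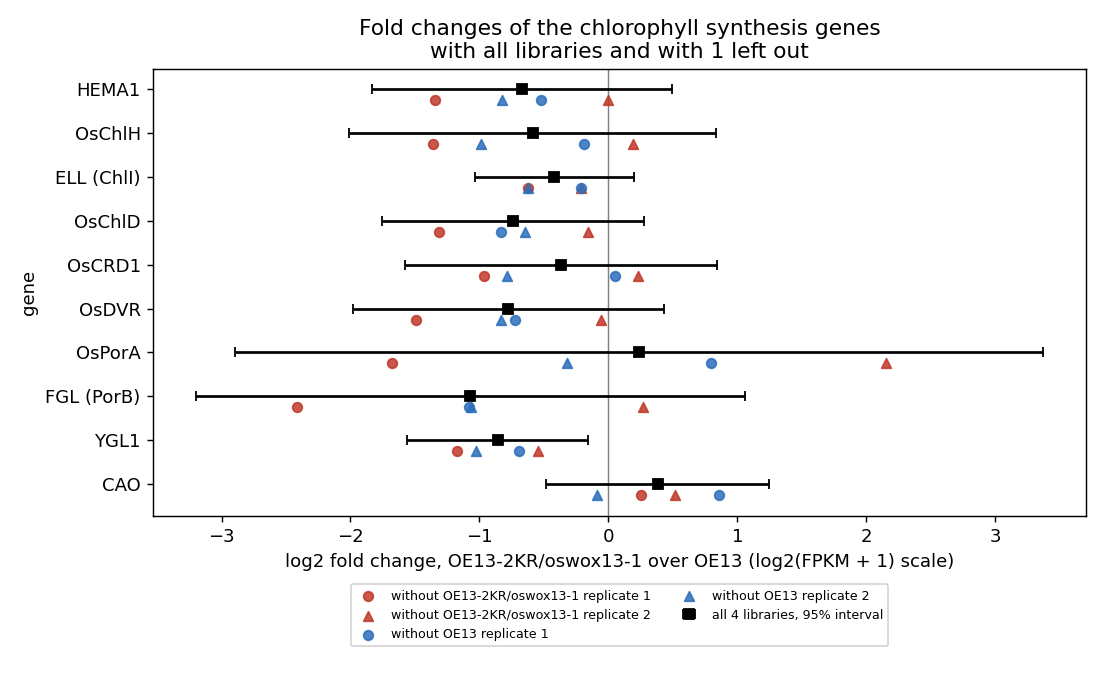
Log2 fold change, OE13-2KR/oswox13-1 over OE13, on the log2(FPKM + 1) scale for each of the 10 genes. Black squares with bars are the limma estimate and its 95% interval from all 4 libraries, and coloured points are estimates with 1 library left out. Only the interval of YGL1 lies wholly below 0, and OsPorA spans from -1.68 to 2.16 as single libraries are left out.

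The protochlorophyllide reductase genes varied most. These enzymes catalyse the light-driven step, and in flowering plants form A is known from dark-grown seedlings and form B from green leaves. OsPorA (Os04g0678700, chromosome 4, 34663055 to 34664559, plus strand) had 1292 and 89.7 FPKM in OE13-2KR/oswox13-1 leaves, against 426 and 196 FPKM in OE13 leaves. The libraries of OE13-2KR/oswox13-1 held both the highest and the lowest value, 14.4-fold apart, while those of OE13 differed 2.18-fold. On the log2(FPKM + 1) scale the gap between the OE13-2KR/oswox13-1 replicates was 3.83, and only 3 of the 20174 genes tested had a larger one. The log2 fold change of 0.24 (SE 1.24, 95% interval -2.89 to 3.37, limma adjusted p = 0.927) therefore gives no direction, as leaving out OE13-2KR/oswox13-1 replicate 2 moved it to 2.16 and leaving out replicate 1 moved it to -1.68.

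The gene of form B, named FGL in the table (Os10g0496900, chromosome 10, 18900290 to 18904022, plus strand), had 284 and 43.3 FPKM in OE13-2KR/oswox13-1 leaves, against 234 and 236 FPKM in OE13 leaves. The OE13 libraries were almost equal, and those of OE13-2KR/oswox13-1 lay above and below them. The gap between the OE13-2KR/oswox13-1 replicates, 2.69 on the log2(FPKM + 1) scale, was exceeded by 21 genes of those tested. In OE13 the gap was -0.01. FGL had a log2 fold change of -1.07 (SE 0.84, limma adjusted p = 0.496), which turned to 0.27 without OE13-2KR/oswox13-1 replicate 2. Per length, OsPorA stood at 4.55 and 2.07 times the level of FGL in OE13-2KR/oswox13-1 and at 1.82 and 0.830 times in OE13. This ratio did not overlap between the lines, although it moved more than 2-fold within each, and it was not tested.

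YGL1 codes for chlorophyll synthase, which joins chlorophyllide to its phytol tail (Os05g0349700, chromosome 5, 16512117 to 16517848, plus strand). It showed the clearest difference of the 10 genes. It had 24.5 and 15.5 FPKM in OE13-2KR/oswox13-1 leaves, against 40.6 and 32.1 FPKM in OE13 leaves. Both OE13-2KR/oswox13-1 libraries lay below both OE13 libraries, with means of 20.0 ± 6.38 FPKM in OE13-2KR/oswox13-1 and 36.4 ± 6.05 FPKM in OE13 (SD, n = 2 each). This made a log2 fold change of -0.86 (SE 0.28, 95% interval -1.56 to -0.16), with a limma p of 0.0251 unadjusted and 0.215 adjusted over all genes. It stayed negative with any 1 library left out, between -1.17 and -0.54, where -0.54 was without OE13-2KR/oswox13-1 replicate 2. Those of HEMA1, ELL, OsChlD and OsDVR also stayed negative, but reached -0.0014, -0.21, -0.16 and -0.05. YGL1 was the 1 gene of the 10 in the authors' deposited table of genes marked up, which holds 4.60% of the genes tested here. That table is the authors' comparison of the same lines, so it is not separate support. The list marked down was not used, so genes in it could not be looked up. In the authors' deposited table its log2 fold change, OE13 over OE13-2KR/oswox13-1, is 0.68, with p = 0.0164 and an adjusted p of 0.455. Up in that table means higher in OE13, as 927 of its 929 genes tested here had the higher level in OE13.

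CAO codes for chlorophyllide a oxygenase, which makes the b form of the pigment (Os10g0567400, chromosome 10, 22482882 to 22486431, minus strand). It ran differently from the rest, at 77.1 and 64.2 FPKM in OE13-2KR/oswox13-1 leaves, against 74.8 and 38.4 FPKM in OE13 leaves. Only OE13 replicate 2 was low. CAO had a log2 fold change of 0.38 (SE 0.34, limma adjusted p = 0.544), which turned to -0.09 without OE13 replicate 2. Its ratio to YGL1, the enzyme gene beside it in the chain, was 3.15 and 4.15 in OE13-2KR/oswox13-1 leaves, against 1.84 and 1.20 in OE13 leaves, without overlap. The fold changes of CAO and YGL1 had opposite signs, and their ratio was not tested. A neighbouring second gene, OsCAO2 (Os10g0567100), was at no more than 0.806 FPKM.

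Across the 10 genes the order of levels was stable at the lower end. In all 4 libraries OsCRD1, YGL1, OsDVR and OsChlD held places 7, 8, 9 and 10, although YGL1 and OsDVR were close in OE13-2KR/oswox13-1 replicate 1 at 24.5 and 24.1 FPKM. At the upper end OsPorA took place 1 in OE13-2KR/oswox13-1 replicate 1 and place 2 or 3 in the other libraries. In the genome, 4 of the genes lie on chromosome 3 and 3 on chromosome 10. All 10 carry the gene ontology term chlorophyll biosynthetic process in the deposited annotation.

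HEMA1 was the most typical of the 10. Its profile over the 4 libraries, less its mean, differed from the median profile by a root mean square of 0.05 on the log2 scale, against 1.02 for OsPorA, the least typical. Of 10495 other genes with a mean of at least 10 FPKM, 9 came within 0.1 of the median profile. The 5 nearest over these 4 libraries were OsFKBP17-2 (0.05), OsIAA17, described as auxin-responsive (0.05), Os08g0130400, described as an AMP-dependent ligase (0.06), ZN, described as a nickel/cobalt transporter (0.06), and the laccase-type gene OsLAC8 (0.08). All 5 overlapped between the lines, with limma adjusted p between 0.419 and 0.532. This follows from the choice, as the median profile they were matched to overlapped as well.

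The rest of the tetrapyrrole pathway was covered by 26 further genes picked by words in the deposited description, of which 24 had a mean of at least 1 FPKM. Negative log2 fold changes were seen for 18 of these and positive ones for 6, the median being -0.26, and 0 passed with adjustment over all genes (limma). Without adjustment, 4 of the 24 were lower in OE13-2KR/oswox13-1 at p under 0.05 and 1 was higher, beside 12.0% lower and 1613 of 20174 higher over all genes tested. Without OE13-2KR/oswox13-1 replicate 1 the median of the 24 was -0.59, against -0.11 for all genes tested. Without replicate 2 of that line the medians were -0.04 and -0.05. OE13-2KR/oswox13-1 replicate 2 was the lowest library for 18 of the 24, against 39.2% of all genes tested.

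The lower genes were GSA, CPO, PPX and Os03g0340001. GSA, the aminomutase gene whose product makes 5-aminolevulinic acid (Os08g0532200), had 49.5 and 25.0 FPKM in OE13-2KR/oswox13-1 leaves, against 69.6 and 68.7 FPKM in OE13 leaves. CPO, for coproporphyrinogen oxidase (Os04g0610800), had 125 and 55.8 FPKM in OE13-2KR/oswox13-1 leaves, against 197 and 208 FPKM in OE13 leaves. PPX, for the plastid protoporphyrinogen oxidase that completes the ring (Os01g0286600), had 11.5 and 5.60 FPKM in OE13-2KR/oswox13-1 leaves, against 22.8 and 14.1 FPKM in OE13 leaves. In all 3 both OE13-2KR/oswox13-1 libraries lay below both OE13 libraries. Their log2 fold changes were -0.95, -1.26 and -1.07, with limma adjusted p of 0.226, 0.209 and 0.234. Leaving out OE13-2KR/oswox13-1 replicate 2 gave -0.47, -0.69 and -0.61, and leaving out replicate 1 gave -1.43, -1.84 and -1.52. The other lower gene, Os03g0340001, described only by a uroporphyrinogen decarboxylase domain, had a log2 fold change of -1.39 (limma adjusted p = 0.230). GSA, CPO and PPX are in the authors' deposited table of the same lines as higher in OE13, with adjusted p of 0.542, 0.535 and 0.238 there.

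Ferrochelatase puts iron in the ring in place of magnesium, and its 2 genes had fold changes of opposite sign. FC1 (Os09g0297000), the type known in Arabidopsis to be expressed in all organs, had 26.2 and 32.5 FPKM in OE13-2KR/oswox13-1 leaves, against 17.8 and 14.9 FPKM in OE13 leaves. FC2 (Os05g0361200), the type tied in Arabidopsis to green tissue, had 95.4 and 72.9 FPKM in OE13-2KR/oswox13-1 leaves, against 107 and 91.8 FPKM in OE13 leaves. FC1 did not overlap between the lines and FC2 did. The log2 fold changes were 0.80 for FC1 (SE 0.21, limma adjusted p = 0.195) and -0.25 for FC2 (SE 0.21, limma adjusted p = 0.530). The ratio of FC1 to FC2 was 0.274 and 0.446 in OE13-2KR/oswox13-1 leaves, against 0.165 and 0.162 in OE13 leaves, and was not tested.

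**Figure D3:**
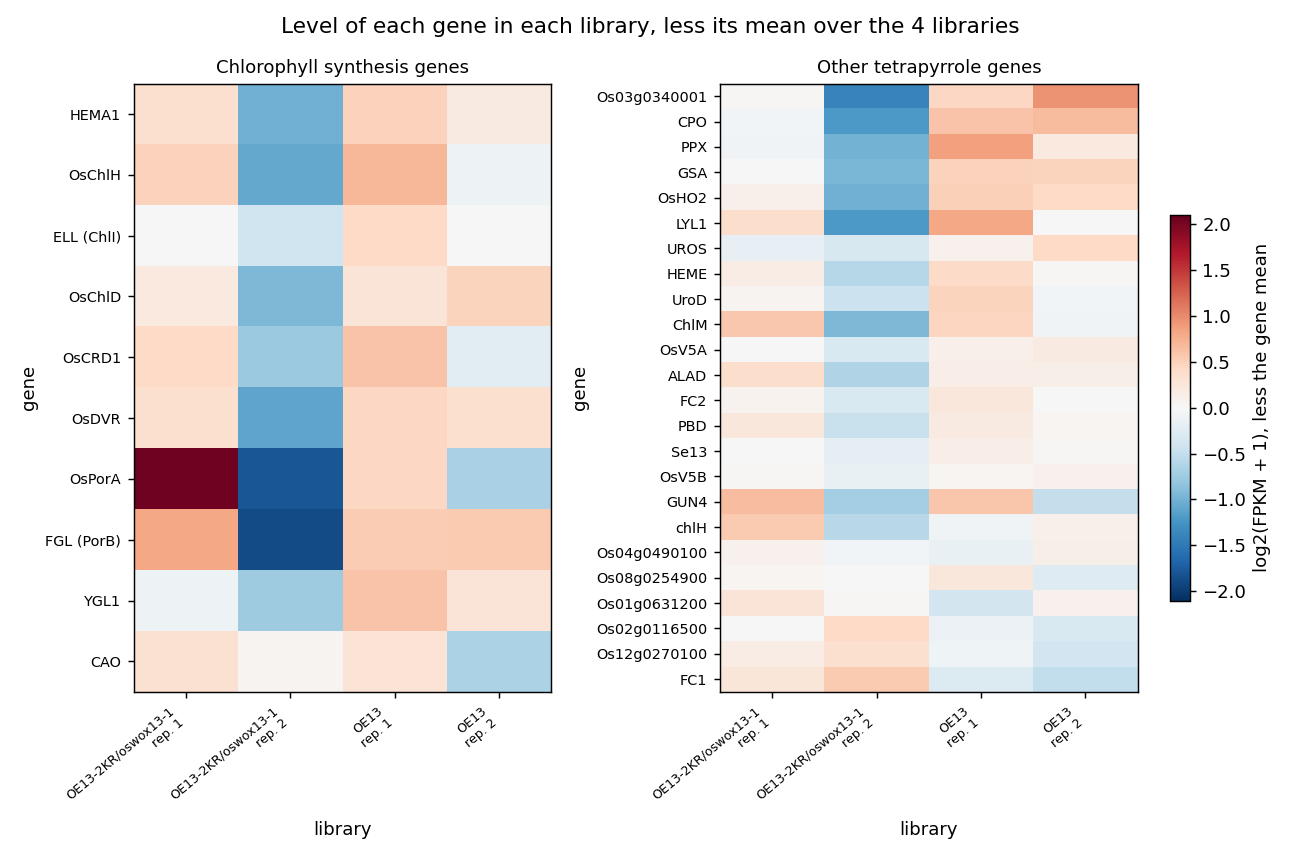
Level of each gene in each library as log2(FPKM + 1) less the gene's mean over the 4 libraries, with the 10 chlorophyll synthesis genes on the left and the 24 other tetrapyrrole genes tested on the right, sorted by fold change. Blue runs down the column of OE13-2KR/oswox13-1 replicate 2 for most genes of both panels, and FC1 at the foot of the right panel is red there.

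Genes of other steps were also lowest in OE13-2KR/oswox13-1 replicate 2. ChlM, the methyltransferase gene between the chelatase and the cyclase (Os06g0132400), had 6.84 and 1.75 FPKM in OE13-2KR/oswox13-1 leaves, against 6.25 and 4.06 FPKM in OE13 leaves. GUN4, whose product activates the H subunit of the chelatase (Os11g0267000), had 8.17 and 2.59 FPKM in OE13-2KR/oswox13-1 leaves, against 7.75 and 3.15 FPKM in OE13 leaves. LYL1, the geranylgeranyl reductase gene for the phytol tail (Os02g0744900), had 105 and 34.4 FPKM in OE13-2KR/oswox13-1 leaves, against 142 and 80.6 FPKM in OE13 leaves. In all 3 replicate 1 was above replicate 2 in each line, and the lines overlapped. LYL1 is overlapped over 55.0% of its span by a gene antisense to it. OsGLK1, an activator of chlorophyll synthesis genes (Os06g0348800), had 87.4 and 45.5 FPKM in OE13-2KR/oswox13-1 leaves, against 73.5 and 48.5 FPKM in OE13 leaves, a log2 fold change of 0.08 (limma adjusted p = 0.921).

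The genes of the proteins that bind the pigment were likewise lowest in OE13-2KR/oswox13-1 replicate 2 for most members. Of 15 genes picked by light-harvesting words in the description, without a check of the gene name, 13 were tested. GHD7 (Os07g0261200) was among the picks not tested. Of the 13, 11 had a negative log2 fold change, and the median was -0.59. Without adjustment, 1 of the 13 was lower in OE13-2KR/oswox13-1 at p under 0.05 (limma) and 0 were higher, beside 12.0% lower and 1613 of 20174 higher over all genes tested, and with adjustment 0 passed. No light-harvesting gene was lower by that count without OE13-2KR/oswox13-1 replicate 2 or without OE13 replicate 1, while leaving out OE13-2KR/oswox13-1 replicate 1 gave 4 and leaving out OE13 replicate 2 gave 3. Lhca6 (Os09g0439500) was the lower one, at 8.71 and 6.67 FPKM in OE13-2KR/oswox13-1 leaves, against 18.6 and 10.9 FPKM in OE13 leaves. OE13-2KR/oswox13-1 replicate 2 was the lowest library for 11 of the 13, against 39.2% of all genes tested.

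Genes of chlorophyll breakdown were mostly higher in OE13-2KR/oswox13-1, with little spread between its replicates. Of 7 genes, 6 had both OE13-2KR/oswox13-1 libraries above both OE13 libraries, against 23.4% of all genes tested, and 1 had them below. At an unadjusted p under 0.05, 5 of the 7 were higher and 1 was lower, beside 1613 of 20174 higher and 12.0% lower over all genes tested. The median log2 fold change was 1.34. OsPAO, for the oxygenase that opens the ring (Os03g0146400), had 50.3 and 52.5 FPKM in OE13-2KR/oswox13-1 leaves, against 19.4 and 20.0 FPKM in OE13 leaves, which gave a log2 fold change of 1.34 with SE 0.17 and a limma adjusted p of 0.187. The stay-green gene SGR, whose product removes the magnesium, and NYC3, NYC1 and OsRCCR1 were the other higher ones, with log2 fold changes of 1.49, 1.37, 0.79 and 1.74. In OsPAO, OE13-2KR/oswox13-1 replicate 2 was close to replicate 1. OsHCAR, which turns chlorophyll b derivatives back to the a form (Os04g0320100), was the lower one at 199 and 131 FPKM in OE13-2KR/oswox13-1 leaves, against 281 and 246 FPKM in OE13 leaves. No breakdown gene passed with adjustment over all genes, and the difference between the synthesis and breakdown lists was not tested.

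**Figure D4:**
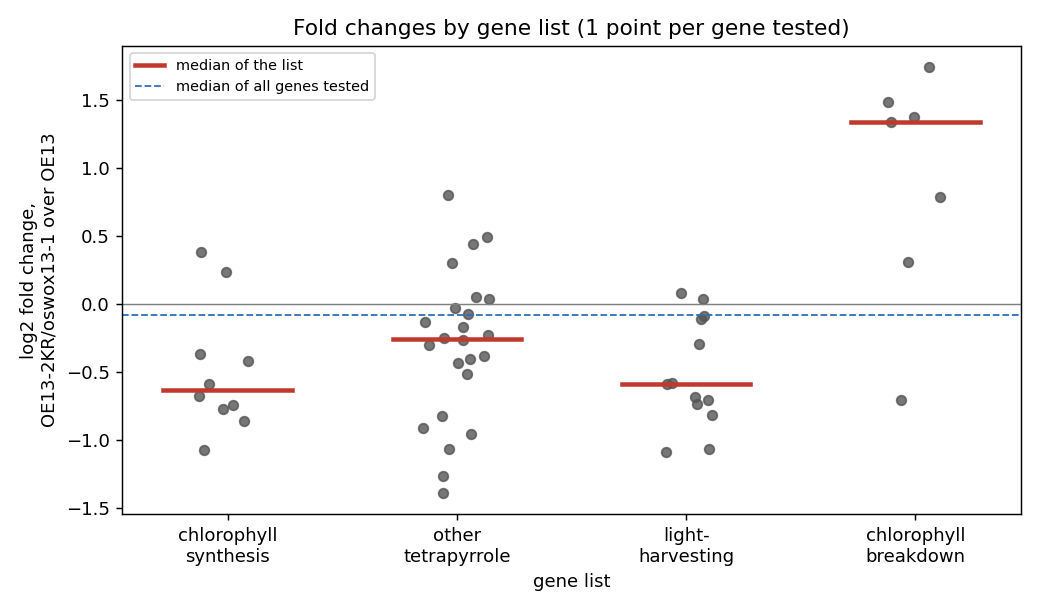
Log2 fold changes, OE13-2KR/oswox13-1 over OE13, of the genes tested in each list, 1 grey point per gene, with the list's median as a red bar and the median of all genes tested as a dashed line. The medians are -0.63 for chlorophyll synthesis, -0.26 for other tetrapyrrole genes, -0.59 for light-harvesting genes and 1.34 for chlorophyll breakdown.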

How the data were processed

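Leaf RNA of 4 libraries, 2 per line, was sequenced as paired reads of 150 nt, per the labels' protocols. Sample labels name the molecule genomic DNA, whereas the protocol describes RNA, and the libraries were treated as RNA-seq. Groups and replicate numbers came from the titles, and columns were matched by library name. Values deposited by the authors are FPKM for each gene in each library, per the file headers, and the program behind them is not stated. Tools listed in the submitters' processing notes are DESeq2 1.38.3, HISAT2 2.2.1 and featureCounts 2.0.0, without their roles, and the listed build is IRGSP 1.0. For a list of genes marked up, the authors deposited the fold change (linear and log2) and the p-value with its adjusted form, per the file headers; 1135 of its genes carried exactly 1 RAP identifier and were paired. A list marked down carries other identifiers and was not used.

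The check for whole-read steps in low FPKM values used the genomic span, introns included, in place of the counted length. It therefore cannot decide whether such steps are present. Read depth and counting error are unknown. limma 3.58.1 (R 4.3.3) with trended variance was fitted to log2(FPKM + 1) of the 20174 genes that averaged at least 1 FPKM, with Benjamini-Hochberg adjustment. This scale understates changes of low genes. An exact permutation test of 2 against 2 libraries could not pass 0.05. The steps were tested on simulated data. The members and lists were chosen with earlier results of these data known. Named genes were the 10 members, genes of the other lists at an unadjusted p under 0.05 and the 5 genes nearest to the members' median profile; others were named after their values were seen. The identifier Os01g0239000 was dropped because its description does not match, and promoter motifs were not analysed here.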

Additional observations from a re-analysis of the deposited data

How the results depend on the processing

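No member passed an adjusted p of 0.05 (limma) under any of 11 alternatives, where the smallest was 0.0857. Of 110 member values under alternatives, 103 kept their sign and 7 did not, each of the 7 with a library left out. With 1 library left out the log2 fold change ran from -1.68 to 2.16 for OsPorA, from -1.36 to 0.19 for OsChlH, from -0.97 to 0.23 for OsCRD1, from -2.42 to 0.27 for FGL and from -0.087 to 0.86 for CAO. The members' median ran from -1.33 (without OE13-2KR/oswox13-1 replicate 1) to 0.10 (without replicate 2), with 0 to 7 members lower and 0 to 1 higher at an unadjusted p under 0.05. Likewise the median of other tetrapyrrole genes ran from -0.59 to -0.042, that of breakdown genes from 1.17 to 1.37 and that of light-harvesting genes from -0.99 to -0.02. Over all genes 0 to 5 passed the adjusted threshold, with 1000 to 3382 lower and 783 to 1580 higher at an unadjusted p under 0.05. With all libraries 1 gene passed, against 0 without a filter on low values, 2 with quantile normalisation and 0 with a replicate block. The median of all genes was -0.031 without a filter, -0.039 with a mean FPKM of at least 5, 0.0033 with rescaled libraries and 0.034 with quantile normalisation; the members' median was then -0.63, -0.63, -0.53 and -0.63. The replicate block left the members' median at -0.63 with 1 member lower. Over all genes tested it gave 2122 lower at an unadjusted p under 0.05 (limma), against 2415 without it. By the same count it gave 6 light-harvesting genes lower, against 1 without it. That count was 0 without a filter, with rescaled libraries and with quantile normalisation, and 0 to 4 with 1 library left out. Likewise, of other tetrapyrrole genes 2 were lower without a filter and 2 higher with quantile normalisation, and 1 to 9 were lower and 0 to 2 higher with 1 library left out. The 1 lower breakdown gene was lost without a filter, with rescaled libraries and with any library but OE13-2KR/oswox13-1 replicate 1 left out, while 4 to 5 were higher with 1 library left out. Over all genes tested, the gaps between replicates of the 2 lines had a correlation of -0.09. Replicate 1 was above replicate 2 in both lines for some genes, such as OsCRD1 and LYL1, but not for OsChlD or FGL. Whether replicate numbers pair the libraries is therefore not settled. The causes of these shifts were not tested. Unknown read depth limits what can be said of low genes.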

Other observations

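A few further genes that touch the pathway are described here, picked with their values already known. Their lack of overlap between the lines therefore cannot serve as a test. Of all genes tested, 32.8% had both OE13-2KR/oswox13-1 libraries below both OE13 libraries, and 23.4% had both above. SE5, a heme oxygenase gene of the branch that makes the phytochrome chromophore (Os06g0603000, chromosome 6), had 323 and 277 FPKM in OE13-2KR/oswox13-1 leaves, against 158 and 166 FPKM in OE13 leaves. The lines did not overlap, and the log2 fold change of SE5 came to 0.88 (SE 0.18, limma adjusted p = 0.187). The stroma-localised heme oxygenase gene OsHO2 (Os03g0395000) had lower values, at 241 and 111 FPKM in OE13-2KR/oswox13-1 leaves, against 317 and 300.2 FPKM in OE13 leaves (log2 fold change -0.91, SE 0.38, limma adjusted p = 0.268).

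OsFLU1 (Os01g0510600) is the rice counterpart of FLU, which in Arabidopsis holds back glutamyl-tRNA reductase in the dark. It had 18.1 and 9.05 FPKM in OE13-2KR/oswox13-1 leaves, against 27.4 and 24.3 FPKM in OE13 leaves (log2 fold change -0.95, SE 0.34, limma adjusted p = 0.227). OsLCAA, described by a Ycf54 domain (Os03g0331600), averaged 18.4 ± 4.72 FPKM in OE13-2KR/oswox13-1 leaves and 26.1 ± 0.783 FPKM in OE13 leaves (SD, n = 2 each; log2 fold change -0.51, limma adjusted p = 0.295). Neither overlapped between the lines, and OE13-2KR/oswox13-1 replicate 2 was the lowest library for both. The chlorophyllase gene OsCHL (Os10g0419600) was low throughout, at 2.12 and 1.84 FPKM in OE13-2KR/oswox13-1 leaves, against 1.33 and 0.117 FPKM in OE13 leaves.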
